A study of Rattus norvegicus with 6 samples.

Results

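The genes described here belong to antigen presentation: the rat major histocompatibility complex (MHC), which carries the prefix RT1 in this species, and the genes that build, load and regulate its molecules. Members were taken from the deposited count table by name: every row whose symbol starts with RT1-, and the rows of B2m, Tap1, Tap2, Tapbp, Psmb8, Psmb9, Psme1, Psme2, Cd74, Ciita, Nlrc5, Cd80, Cd86 and Cd40. This gave 48 of 31368 rows, with 46 different symbols, because RT1-CE15 and RT1-CE16 each stand on 2 rows. Psmb10, which the rule also names, was not analysed here. The members were sorted into a class I list of 32 rows (23 heavy chains and 9 genes of class I assembly), a class II list of 13 rows (11 chains and 2 partners) and 3 costimulatory genes. A filter on low counts left 36 of the 48 rows for testing.

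The data are RNA sequencing counts from whole renal tissue of male Sprague-Dawley rats, 8 weeks old and of wild-type genotype. The controls were 3 Sham libraries, set against 3 from the CKD (chronic kidney disease) group. Neither the way the disease was produced nor the sham procedure is described in the sources. Nothing in the labels ties each library to its own animal. The p-values therefore measure only how far these 6 samples spread, and that spread may be technical. Each library held 15918035 to 17503644 assigned counts, of which the 48 rows took 0.0813% to 0.172% in Sham and 0.253% to 0.559% in CKD. Genes of the mitochondrial genome took 37.9% of the counts of Sham 2, 14.4% and 15.3% of those of Sham 1 and 3, and 8.83% to 10.8% in CKD. Tubule markers of the kidney were abundant in all 6 libraries: Lrp2, Cubn, Slc34a1 and Aqp1 of the proximal tubule summed to 4004 to 13399 CPM in Sham and 7146 to 10088 in CKD, where CPM is a count divided by the scaled library size and multiplied by 1e+06. In bulk tissue, more cells of a type and more RNA per cell cannot be told apart.

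MHC class I molecules, a heavy chain paired with beta-2-microglobulin, display peptides cut from proteins made inside the cell and are found on nearly all nucleated cells. MHC class II molecules, an alpha chain paired with a beta chain, display peptides from material taken up by the cell, and are made mainly by dendritic cells, macrophages and B cells, though tubular epithelium can be induced to make them. Interferon gamma raises both, through IRF1 and through the transactivators NLRC5 for class I genes and CIITA for class II genes.

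Of the 36 tested antigen presentation rows, 5 rose in CKD and 0 fell. The 5 were Ciita, the class II chains RT1-Db1 and RT1-Ba, the class I heavy chain RT1-N3 and the immunoproteasome subunit Psmb8. By edgeR's quasi-likelihood test, with p adjusted over the 15371 rows tested and a threshold of 0.05, 3.82% of all rows tested were called, 2.67% higher and 1.15% lower. The log2 fold change (CKD minus Sham) was above 0 for 34 of the 36 tested members, with a median of 1.31 against -0.01 over all rows tested. All 3 CKD libraries lay above all 3 Sham libraries in 20 of the 36, where this held for 18.8% of all rows tested, and below in 0 of the 36, against 12.4%. Without RT1-M2, which passed the filter on low counts through its CKD libraries alone, the log2 fold change was above 0 for 33 of 35 members and all CKD libraries lay above all Sham libraries in 19 of 35. At an unadjusted p under 0.05 the count of members was 26 (72.2%), all higher in CKD, where 23.8% of all rows tested had such a p and 13.5% had it with a higher value in CKD. The number of calls depended on which libraries were in the fit. Without Sham 2, Sham 3, CKD 1 or CKD 2, edgeR called 0 members (19, 20, 17 and 15 at an unadjusted p under 0.05) and 2, 7, 0 and 0 of all rows (4261, 3446, 2330 and 2312). In those 4 fits the median log2 fold change of the members was 1.18, 1.08, 1.25 and 1.10. In contrast, edgeR called 7 members and 1711 of 15900 rows without Sham 1, and 11 members and 413 of 15807 rows without CKD 3. DESeq2 called 17 members and 2497 of 15371 rows. With limma-voom 0 members and 164 rows were called (26 members at an unadjusted p under 0.05, smallest adjusted p 0.0529).

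**Figure D1:**
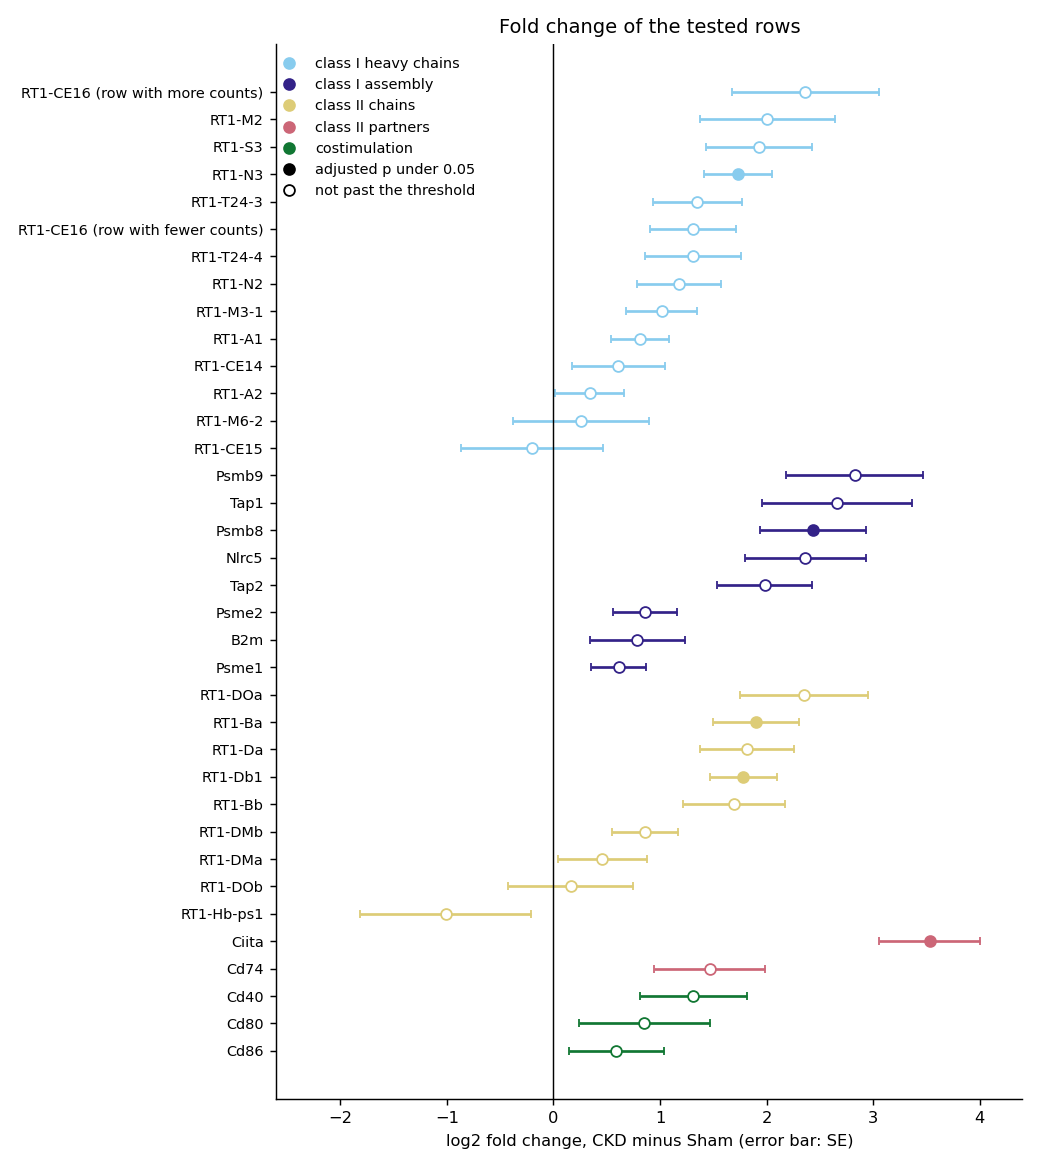
Log2 fold change (CKD minus Sham) of the 36 tested rows on the horizontal axis, with the standard error from edgeR as bars; colours mark the list, and filled points passed an adjusted p of 0.05. The 5 filled points are Ciita, Psmb8, RT1-Ba, RT1-Db1 and RT1-N3, and RT1-CE15 and RT1-Hb-ps1 lie below 0.

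The class I heavy chains carry the peptide groove. In the rat, RT1-A genes are the classical chains, and the many genes of the RT1-CE, RT1-N, RT1-S, RT1-T and RT1-M groups are related class I genes, most of them non-classical. Of the 14 heavy-chain rows tested, 1 rose (RT1-N3) and 0 fell. Their median log2 fold change was 1.24, and 6 of the 14 had CKD values all above the Sham values (1.18 and 5 of 13 without RT1-M2). Of all rows tested 18.8% had CKD values all above the Sham values, and 2.67% were called higher. RT1-N3 had 6.67, 5.52 and 7.88 CPM in Sham 1, 2 and 3 and 24.3, 27.8 and 14.6 CPM in CKD 1, 2 and 3. The groups did not overlap, and the lowest CKD value, in CKD 3, was nearly 2 times the highest Sham value. The log2 fold change was 1.73 ± 0.31 (SE; edgeR adjusted p = 0.0394). Without CKD 1 the log2 fold change was 1.67 and the edgeR adjusted p 0.169.

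RT1-S3 was the heavy-chain row with the most counts. It had 64.2, 32.8 and 49 CPM in Sham 1, 2 and 3 and 186, 295 and 74.9 CPM in CKD 1, 2 and 3. CKD 2 stood highest, and CKD 3 came within a short distance of Sham 1 without overlapping it. The log2 fold change of 1.93 ± 0.50 did not pass (edgeR adjusted p = 0.0716). RT1-S3 alone gave 37.1% of all heavy-chain RT1 counts in Sham and 48.2% in CKD (means of 3 libraries).

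RT1-N2 had 15.5, 13.1 and 33.7 CPM in Sham against 53.4, 53.9 and 33.7 in CKD, and CKD 3 equalled Sham 3 to 3 digits, so the groups touched (a log2 difference of 1.18 ± 0.39; edgeR adjusted p = 0.127). The classical chain RT1-A1 had 10.6, 9.57 and 13.1 CPM in Sham against 22.5, 22 and 14 in CKD, without overlap (a log2 difference of 0.81 ± 0.28; edgeR adjusted p = 0.129). For RT1-T24-3 and RT1-T24-4 the lowest CKD library lay below the highest Sham library. RT1-T24-3 had 13.3, 8.03 and 6.4 CPM in Sham against 26.9, 31.2 and 12.7 in CKD (a log2 difference of 1.35 ± 0.42; edgeR adjusted p = 0.105). RT1-T24-4 had 10.2, 5.59 and 3.8 CPM in Sham against 17.6, 21.2 and 9.68 in CKD (a log2 difference of 1.31 ± 0.45; edgeR adjusted p = 0.134).

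The other 8 tested heavy-chain rows were lower in counts, with log2 fold changes from -0.20 (RT1-CE15) to 2.36 (the RT1-CE16 row with more counts), and none passed. They include the other classical chain, RT1-A2, whose groups overlapped at 7.47, 6.08 and 4.15 CPM in Sham against 6.9, 8.6 and 6.91 in CKD, and RT1-M3-1, the rat relative of a mouse class I molecule that displays formylated bacterial peptides (7.2, 5.24 and 4.5 CPM in Sham against 12.7, 13.7 and 7.94 in CKD). RT1-M2 came through the filter on its CKD counts alone (7, 3 and 3 counts in Sham, 13, 31 and 29 in CKD). The sign for RT1-CE15 turned with the scaling: it was 0.21 with library totals alone. The 9 heavy-chain rows that were not tested had at most 28 counts in any library. RT1-M10-1 and the second RT1-CE15 row had 0 counts in all 6, which allows up to 3 counts in each. The RT1-S2 counts were 0, 28 and 6 for the Sham libraries and 5, 4 and 2 for CKD. RT1-T18 had 0 counts in each Sham library and 3, 6 and 0 in CKD.

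Heavy-chain rows cannot be taken as independent measurements. In the deposited coordinates, whose build is uncertain (the submitters' processing notes name Rnor_6.0), the RT1-CE3 row spans chr20:2623953-2692081. It overlaps the rows of RT1-S3, RT1-N2, RT1-N3, RT1-T24-4, RT1-S2 and RT1-O1. The RT1-CE15 rows and the larger RT1-CE16 row overlap each other too. The RT1-A1 row overlaps an unnamed class I row with a mean of 8.64 CPM in Sham and 15.8 in CKD. The sources do not say how reads that match several copies were assigned. How alike the transcripts of the copies are was not measured. Over the 250 bases upstream in RefSeq (GRCr8), 6 of the 153 pairs of class I promoters were more than 60% identical in a global alignment. The pair of RT1-A1 and RT1-CE16 had the highest value, 82.0%, followed by RT1-A2 and RT1-CE15 with 78.1%. The median class I pair had 44.1%, against 43.8% for the 162 pairs of a class I with a class II promoter, and the 15 pairs among the 6 genes that overlap RT1-CE3 ran from 39.8% to 55.9%. In addition, the order of symbols differs between sources. RT1-A1 and RT1-A2 lie between RT1-CE14 and RT1-Da in the deposited table and beyond RT1-Hb-ps1 in RefSeq GRCr8, so a match by symbol may join different copies. Another unnamed class I row (ENSRNOG00000062487) lies near that place, between RT1-Hb-ps1 and Tapbp, in the deposited table. Its mean was 8.56 CPM in Sham and 21.1 in CKD, and its log2 difference of 1.30 ± 0.30 missed the threshold (edgeR adjusted p = 0.0548).

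**Figure D2:**
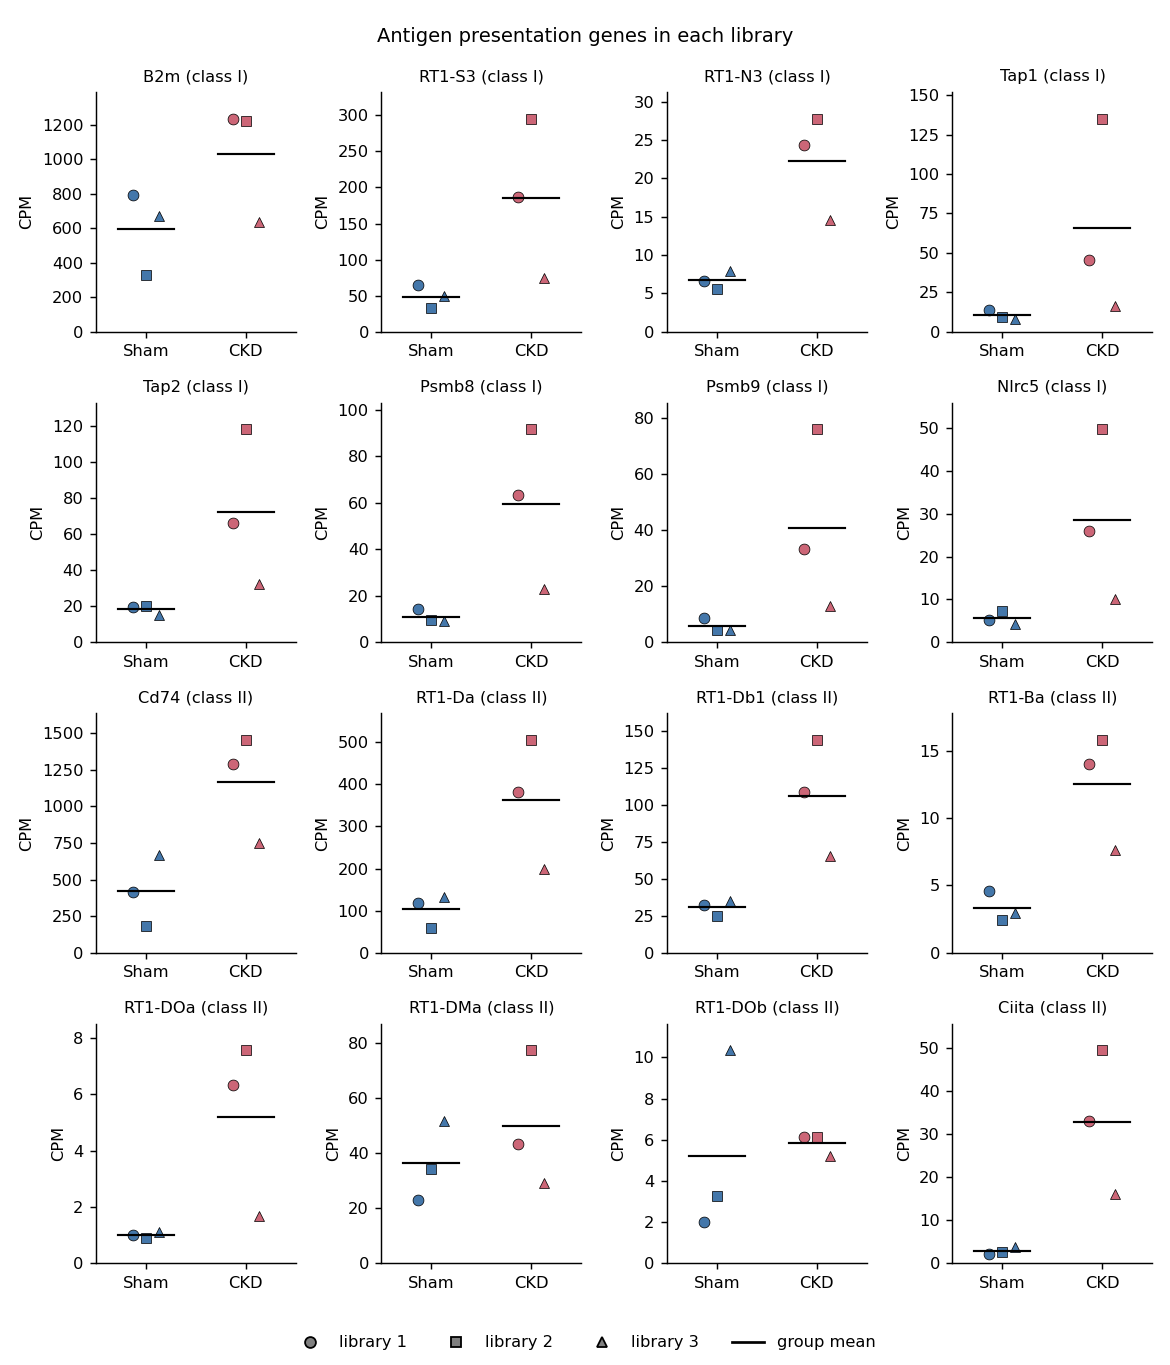
CPM (vertical axes from 0, each panel on its own scale) of 16 members in the 3 Sham and 3 CKD libraries. Symbols mark the library number, which is not known to pair samples, and bars the group mean. CKD 3 is the lowest CKD library in each panel shown, and in the panels of B2m, RT1-DMa and RT1-DOb the groups overlap.

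The genes of class I assembly make the peptide, carry it into the endoplasmic reticulum and complete the molecule. Of the 8 tested, 1 rose (Psmb8) and 0 fell, with a median log2 fold change of 2.17, and 7 of the 8 had CKD values all above the Sham values. The exception was B2m. Over all rows tested the share with CKD values all above was 18.8%. Their fold changes fell into a high and a low group. Psmb9, Tap1, Psmb8, Nlrc5 and Tap2 had log2 fold changes from 1.98 to 2.83, and Psme2, B2m and Psme1 from 0.61 to 0.86.

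Psmb8 encodes an immunoproteasome subunit that takes the place of the standard subunit PSMB5. It had 14.3, 9.64 and 8.94 CPM in Sham 1, 2 and 3 and 63.5, 91.7 and 22.7 CPM in CKD 1, 2 and 3. All CKD libraries exceeded all Sham libraries, CKD 2 by the most. The log2 fold change was 2.44 ± 0.50 (edgeR adjusted p = 0.045), and without CKD 2 it was 1.98 (edgeR adjusted p = 0.172). Psmb9, whose product takes the place of PSMB6, had 8.47, 4.47 and 4.22 CPM in Sham 1, 2 and 3 and 33.2, 75.9 and 12.8 CPM in CKD 1, 2 and 3. Its log2 fold change of 2.83 ± 0.65 did not pass (edgeR adjusted p = 0.0554), and the CKD libraries spread 5.96-fold between lowest and highest.

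The standard subunits did not pass the test: the log2 fold changes were -0.12 ± 0.24 for Psmb5, -0.19 ± 0.22 for Psmb6 and -0.25 ± 0.21 for Psmb7 (edgeR adjusted p = 0.809, 0.649 and 0.504). The ratio of Psmb8 to Psmb5 counts was 0.126, 0.139 and 0.125 in Sham 1, 2 and 3 and 0.885, 1.12 and 0.282 in CKD 1, 2 and 3. The ratio of Psmb9 to Psmb6 counts was 0.11, 0.0719 and 0.0878 in Sham 1, 2 and 3 and 0.655, 1.35 and 0.222 in CKD 1, 2 and 3. Neither ratio overlapped between groups (exact permutation test, two-sided p = 0.1, which is the smallest that 3 against 3 allows; 0.257 adjusted over the 18 ratios computed). As ratios of counts they compare libraries and not the levels of 2 genes. PSME1 and PSME2 form the regulator that opens the proteasome. Psme1 had 113, 95.2 and 69.7 CPM in Sham against 139, 168 and 117 in CKD and Psme2 35.9, 36.7 and 27 CPM in Sham against 62.6, 79.8 and 38.2 in CKD. The groups were separate in both but lay close together, with log2 fold changes of 0.61 ± 0.25 and 0.86 ± 0.30 (edgeR adjusted p = 0.198 and 0.136). The Psme1 row overlaps that of Emc9.

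**Figure D3:**
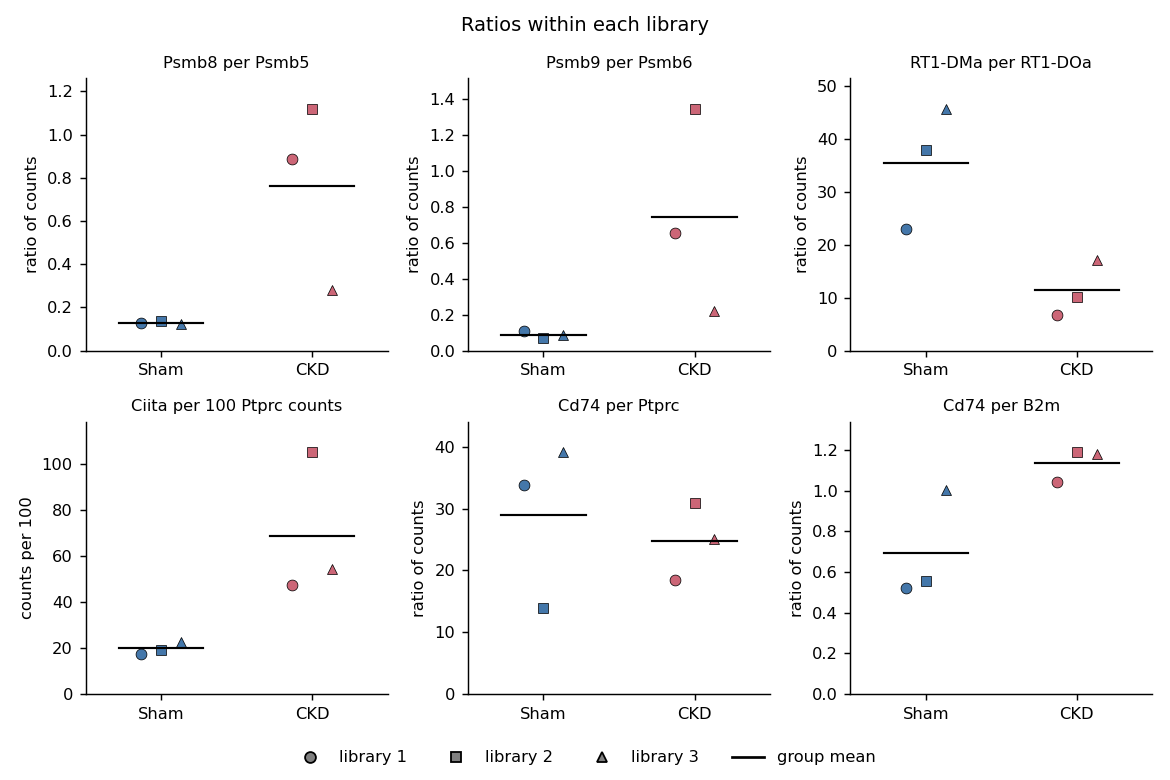
Ratios of counts within each library (vertical axes from 0), by group; symbols mark the library number and bars the group mean. The ratios of Psmb8 to Psmb5, Psmb9 to Psmb6, RT1-DMa to RT1-DOa and Cd74 to B2m, and Ciita per 100 Ptprc counts, do not overlap between groups, while Cd74 per Ptprc does.

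TAP1 and TAP2 together form the peptide transporter. Tap1 had 13.6, 9.36 and 8.09 CPM in Sham 1, 2 and 3 and 45.4, 135 and 16.5 CPM in CKD 1, 2 and 3. The CKD libraries spread 8.19-fold, more than any other tested member, and the lowest, CKD 3, still lay above Sham 1 (a log2 difference of 2.66 ± 0.70; edgeR adjusted p = 0.075). Tap2 had 19.7, 20.1 and 15 CPM in Sham against 66.1, 118 and 32.1 in CKD, without overlap (a log2 difference of 1.98 ± 0.45; edgeR adjusted p = 0.0546). The rows of Tap1 and Psmb9 overlap on opposite strands. No source says whether counting used strand, and reads from the overlap cannot be told apart. Nlrc5, the transactivator of class I genes, had 5.13, 7.41 and 4.15 CPM in Sham against 26.1, 49.8 and 10.1 in CKD, again without overlap and with CKD 2 highest (a log2 difference of 2.36 ± 0.56; edgeR adjusted p = 0.0615).

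B2m, the light chain of every class I molecule, had 792, 329.6 and 668 CPM in Sham 1, 2 and 3 and 1234, 1219.5 and 635 CPM in CKD 1, 2 and 3. CKD 3 lay below Sham 1 and Sham 3, so the groups overlapped (a log2 difference of 0.79 ± 0.44; edgeR adjusted p = 0.324). Tapbp, which encodes the loading chaperone tapasin, had 0 counts in all 6 libraries, which allows up to 3 in each. Its row overlaps that of Rgl2, and no direction can be read for it.

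RefSeq promoters (GRCr8) were matched by symbol for 38 of the 46 symbols and searched over 250 bases before the start, on both strands, for a short form of the interferon-stimulated response element, GAAA, any 2 bases and GAAA. The pattern was chosen after the sequences were seen. It was present in 5 of 8 promoters of class I assembly genes, 3 of 18 of heavy-chain genes, 0 of 9 of class II chains and in that of Cd80. Of all 33469 promoters searched the same way, 3.41% held it. A match is a description of letters and not a shown binding site. The 5 assembly genes are shown with RT1-N3, the called heavy chain, and RT1-S3, the heavy-chain row with the most counts. Capitals mark the element, which begins with TTTC where it runs on the other strand.
B2m (chr3:129549168-129549201, plus strand): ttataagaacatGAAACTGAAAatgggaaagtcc
Tap1 (chr20:4668643-4668676, minus strand): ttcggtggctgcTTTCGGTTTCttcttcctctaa
Tap2 (chr20:4652316-4652349, minus strand): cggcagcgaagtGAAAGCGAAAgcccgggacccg
Psme2 (chr15:33052783-33052816, minus strand): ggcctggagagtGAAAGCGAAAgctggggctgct
Tapbp (chr20:4967878-4967915, minus strand): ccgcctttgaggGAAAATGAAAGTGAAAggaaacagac
RT1-N3 (chr20:2666270-2666303, plus strand): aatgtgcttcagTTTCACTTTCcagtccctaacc
RT1-S3 (chr20:2675404-2675437, plus strand): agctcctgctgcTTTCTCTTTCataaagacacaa

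Tap2 and Psme2 carry the same 10 letters, and their log2 fold changes were 1.98 ± 0.45 and 0.86 ± 0.30. In Tapbp 2 copies overlap by 4 bases. Of the called members, RT1-N3 held the element. Ciita, like Nlrc5, had no promoter matched by symbol and was not searched. Psmb8, RT1-Db1 and RT1-Ba had no match to these letters in this window. Psmb9 and Psme1 had no match either. Tap1 and Psmb9 run in opposite directions, and the stretch printed for Tap1 lies between them. It falls just outside the Psmb9 window, which starts at chr20:4668750. Whether the element has a part in any fold change was not tested.

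Class II chains pair as alpha and beta: RT1-Da with RT1-Db1, the rat counterparts of HLA-DR, and RT1-Ba with RT1-Bb, the counterparts of HLA-DQ. RT1-DMa with RT1-DMb exchanges peptides on them, and RT1-DOa with RT1-DOb restrains that exchange. Of the 9 chains tested, 2 rose (RT1-Db1 and RT1-Ba) and 0 fell, and their median log2 fold change was 1.70. In 5 of the 9, the 4 presenting chains and RT1-DOa, all CKD values lay above all Sham values. This held for 18.8% of all rows tested.

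RT1-Db1 had 32.3, 25.1 and 35 CPM in Sham 1, 2 and 3 and 108, 144 and 65.1 CPM in CKD 1, 2 and 3. The Sham libraries lay close together, and the lowest CKD library was well above them (a log2 difference of 1.78 ± 0.32; edgeR adjusted p = 0.0394; 1.50 and 0.165 without CKD 2). Its alpha chain partner RT1-Da, the class II chain with the most counts, had 119, 57.8 and 132 CPM in Sham 1, 2 and 3 and 383, 506 and 199.7 CPM in CKD 1, 2 and 3. These groups were separate as well, but Sham 2 lay far below the other Sham libraries (a log2 difference of 1.82 ± 0.45; edgeR adjusted p = 0.0653). RT1-Da gave 43.4% of class II chain counts in Sham and 55.2% in CKD (means of 3 libraries).

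RT1-Ba had 4.6, 2.45 and 2.96 CPM in Sham 1, 2 and 3 and 14, 15.8 and 7.63 CPM in CKD 1, 2 and 3. The groups did not overlap (a log2 difference of 1.90 ± 0.40; edgeR adjusted p = 0.0486; 1.70 and 0.207 without CKD 2). RT1-Bb had 11.1, 5.24 and 15.1 CPM in Sham against 34.4, 49.4 and 18.2 in CKD, with CKD 3 only slightly above Sham 3 (a log2 difference of 1.70 ± 0.48; edgeR adjusted p = 0.0863). The ratio of RT1-Da to RT1-Ba counts was 31.4 ± 11.6 in Sham and 28.5 ± 3.11 in CKD (mean ± SD, n = 3 per group; exact permutation test, two-sided p = 1; adjusted 1).

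None of the 4 accessory chains passed the test. RT1-DOa had 1.0, 0.908 and 1.13 CPM in Sham 1, 2 and 3 and 6.32, 7.55 and 1.69 CPM in CKD 1, 2 and 3. It was near 1 CPM in every Sham library and several times higher in CKD 1 and CKD 2, while CKD 3 lay just above Sham (a log2 difference of 2.35 ± 0.60; edgeR adjusted p = 0.0713). RT1-DOb had 2.0, 3.28 and 10.3 CPM in Sham against 6.13, 6.11 and 5.22 in CKD, and its CKD values lay within the Sham range (a log2 difference of 0.16 ± 0.59; edgeR adjusted p = 0.896). Sham 3 stood far above the other Sham libraries, and the log2 fold change was -0.26 without Sham 1, -0.12 without Sham 2 and 1.07 without Sham 3.

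RT1-DMa had 23, 34.4 and 51.5 CPM in Sham against 43.2, 77.3 and 29 in CKD and RT1-DMb 37.9, 29.8 and 53.8 CPM in Sham against 71.5, 97 and 52.2 in CKD. Groups overlapped in both, with CKD 3 among the Sham values (log2 differences of 0.46 ± 0.42 and 0.86 ± 0.31; edgeR adjusted p = 0.547 and 0.148). The ratio of RT1-DMa to RT1-DOa counts was 23, 37.8 and 45.7 in Sham 1, 2 and 3 and 6.83, 10.2 and 17.2 in CKD 1, 2 and 3, lower in every CKD library than in any Sham library (exact permutation test, two-sided p = 0.1, the smallest possible; 0.257 adjusted over the 18 ratios). The pseudogene RT1-Hb-ps1 had 1.87, 1.89 and 0.422 CPM in Sham against 0.338, 0.348 and 1.38 in CKD, with overlapping groups (a log2 difference of -1.01 ± 0.80; edgeR adjusted p = 0.48). RT1-Db2 and RT1-Ha were not tested, with 4 to 25 and 1 to 15 counts per library.

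Class II promoters hold an X box and a Y box at a set distance, and CIITA acts through the proteins bound there, which include RFX5 and NF-Y. A pattern for the pair, ACNGANG followed by ATTGG with 10 to 25 bases between, was also chosen after the sequences were seen and searched on both strands of the same 250 bases. It was present in 6 of 9 class II chain promoters and in 4 of 18 of the heavy chains (RT1-A1, RT1-A2, RT1-M3-1 and RT1-CE3), against 0.529% of all 33469 promoters. RT1-CE3 lies at chr20:2623953-2692081 on the plus strand as deposited, but its RefSeq promoter is at chr20:3525109-3525408 on the minus strand. RT1-A1 and RT1-A2 are on the minus strand as deposited and on the plus strand in RefSeq. The promoters of RT1-CE3, RT1-A1 and RT1-A2 may therefore belong to other copies than the counted rows. Shown from RefSeq GRCr8, matched by symbol, are the DR-like pair, RT1-Bb, the accessory chains RT1-DMa and RT1-DOb, whose groups overlapped, and the classical class I chain RT1-A1, so that called and uncalled genes can be compared. Capitals mark the X and Y letters.
RT1-Da (chr20:4515324-4515382, plus strand): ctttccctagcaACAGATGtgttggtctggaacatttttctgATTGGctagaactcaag
RT1-Db1 (chr20:4560226-4560283, minus strand): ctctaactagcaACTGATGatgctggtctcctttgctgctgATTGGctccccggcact
RT1-Bb (chr20:4604163-4604220, minus strand): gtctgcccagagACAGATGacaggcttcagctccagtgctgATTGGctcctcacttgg
RT1-DMa (chr20:4712383-4712441, minus strand): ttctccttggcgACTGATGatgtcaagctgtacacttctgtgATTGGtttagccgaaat
RT1-DOb (chr20:4627590-4627645, minus strand): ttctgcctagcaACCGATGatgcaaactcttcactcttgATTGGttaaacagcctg
RT1-A1 (chr20:4907136-4907194, plus strand): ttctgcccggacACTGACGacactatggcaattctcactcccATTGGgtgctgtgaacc

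Of the called class II chains, RT1-Db1 held the pair, and RT1-Ba had no match to these letters in this window. Whether the pair has a part in any fold change was not tested.

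The class II genes stand side by side. In the deposited coordinates the stretch chr20:4512911-4780618 holds 17 rows, of which 15 are members, since Tap2, Psmb8, Tap1 and Psmb9 lie among the class II chains. The other 2, Brd2, a chromatin reader, and LOC120098895, had log2 fold changes of -0.03 ± 0.21 and -0.23 ± 0.46 (edgeR adjusted p = 0.953 and 0.799). Along the stretch the fold changes ran high from RT1-Da to RT1-Bb, were near 0 at RT1-DOb, and were highest at Psmb9.

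**Figure D4:**
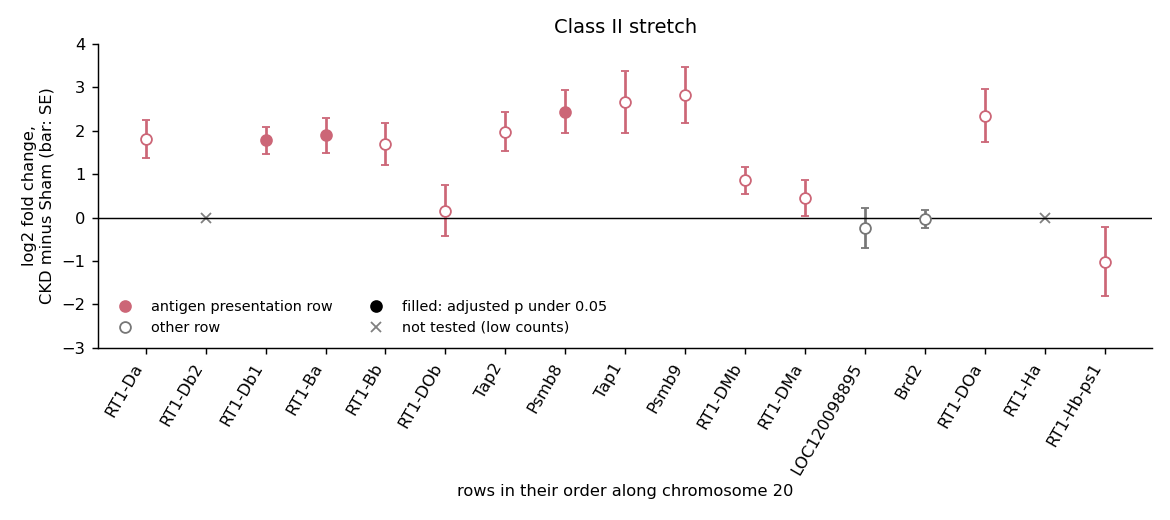
Log2 fold change (CKD minus Sham; bars, standard error from edgeR) of the 17 rows of the class II stretch in their order along chromosome 20, with even spacing; filled points passed an adjusted p of 0.05 and crosses mark rows not tested. Brd2 and LOC120098895, which are not antigen presentation genes, lie at -0.03 and -0.23.

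The partners of class II act before and after the chains are made. Ciita, the transactivator of class II genes, had the largest log2 fold change of the 36 members. It had 2.13, 2.52 and 3.87 CPM in Sham 1, 2 and 3 and 32.9, 49.4 and 16.2 CPM in CKD 1, 2 and 3. The lowest CKD value was about 4 times the highest Sham value. The mean rose from 2.84 ± 0.913 to 32.8 ± 16.6 CPM (SD, n = 3 per group), and the log2 fold change was 3.53 ± 0.47 (SE; edgeR adjusted p = 0.0285). Leaving out 1 library at a time gave log2 fold changes from 3.12 (without CKD 2) to 3.86 (without CKD 3), and edgeR adjusted p from 0.0253 to 0.151. Cd74, the invariant chain that fills the class II groove until loading, had 413, 183 and 671 CPM in Sham 1, 2 and 3 and 1288, 1454 and 751 CPM in CKD 1, 2 and 3. CKD 3 lay only a little above Sham 3, and the Sham libraries spread 3.67-fold, with Sham 2 lowest (a log2 difference of 1.46 ± 0.52; edgeR adjusted p = 0.144). Per kilobase of the deposited gene length, which allows genes to be compared, B2m and Cd74 were the most abundant members in both groups. The group mean went from 306 to 528 CPM per kb for B2m and from 183 to 505 for Cd74. Of the chains, RT1-DMb went from 27.9 to 50.7, RT1-Da from 26.3 to 92.5, RT1-S3 from 18.2 to 69.2 and RT1-Ba from 2.41 to 9.04 CPM per kb. The transactivators lay lower, with Ciita going from 0.385 to 4.46 and Nlrc5 from 0.788 to 4.06 CPM per kb. The ratio of Ciita to Nlrc5 counts was 0.416, 0.34 and 0.932 in Sham 1, 2 and 3 and 1.26, 0.992 and 1.6 in CKD 1, 2 and 3 (exact permutation test, two-sided p = 0.1; adjusted 0.257).

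Summed by class, the RT1 chains had log2 fold changes of 1.50 for class I and 1.48 for class II. Over single rows, the median log2 fold change was 1.31 for the 22 tested rows of the class I list and 1.70 for the 11 of the class II list, a difference of 0.39. That difference changed with the libraries in the fit: it was 0.06 without Sham 1, 0.15 without Sham 2, 0.22 without CKD 2 and 0.68 without Sham 3. Over the RT1 chains alone the difference of the medians was 0.45, and it turned to -0.025 without Sham 1 and -0.097 without CKD 2. The rows tested changed too. Without Sham 1, CKD 2 or Sham 3 the filter left 12 rows of the class II list, with 10 chains, against 11 and 9 with all libraries. Medians of those fits therefore cover another set of rows. Since reads of alike copies may be split between rows, the counts of all RT1 rows were also added up by class. The heavy-chain rows together had 146, 104 and 137 CPM in Sham 1, 2 and 3 and 395, 506 and 192 CPM in CKD 1, 2 and 3. The class II chain rows together had 234, 162 and 303 CPM in Sham and 669, 904 and 381 CPM in CKD. In both sums every CKD library exceeded every Sham library, and CKD 2 was highest. The log2 fold changes of the sums were 1.50 ± 0.38 for class I and 1.48 ± 0.41 for class II. The table annotates 11 more rows as class I without an RT1 symbol, 5 with no symbol and 6 with a clone or locus name. The class I value was 1.35 ± 0.37 with the 5 added, and 1.35 with all 11. These 2 sums were chosen after seeing the data. Class II chain counts per heavy-chain count were 1.79 ± 0.36 in Sham and 1.82 ± 0.15 in CKD (mean ± SD, n = 3 per group; exact permutation test, two-sided p = 0.9; adjusted 0.953), and the groups overlapped. A p of this size does not show that the classes changed alike.

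**Figure D5:**
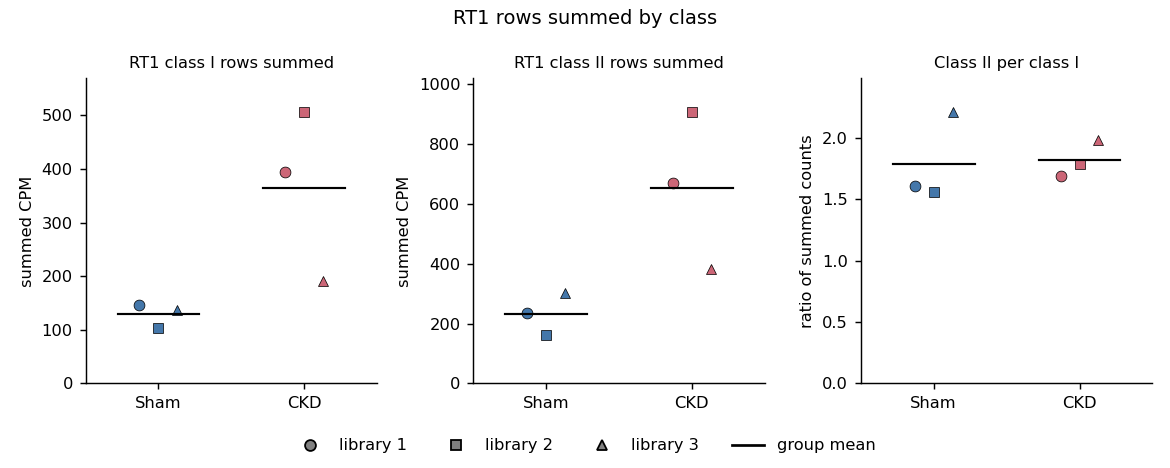
Summed CPM of the 23 class I heavy-chain rows and of the 11 class II chain rows, and class II counts per class I count, in each library (vertical axes from 0); symbols mark the library number and bars the group mean. Both sums are higher in all 3 CKD libraries than in any Sham library, and the ratio overlaps between groups at means of 1.79 and 1.82.

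Costimulatory molecules give the second signal that a T cell needs besides the MHC. None of the 3 passed the test, and in all 3 the groups overlapped. Cd86 had 5.07, 5.8 and 2.39 CPM in Sham against 8.1, 7.65 and 4.2 in CKD (a log2 difference of 0.59 ± 0.45; edgeR adjusted p = 0.461). Cd40, the receptor for CD40 ligand, had 2.07, 1.19 and 1.06 CPM in Sham against 4.97, 3.73 and 2.05 in CKD (a log2 difference of 1.31 ± 0.50; edgeR adjusted p = 0.17). Cd80 had 0.467, 1.33 and 0.845 CPM in Sham against 2.51, 1.44 and 0.82 in CKD (a log2 difference of 0.85 ± 0.62; edgeR adjusted p = 0.44), and its row overlaps that of Timmdc1. These are low levels, and the self-test on simulated data recovered 1.04% of the genes changed 2-fold, so changes of that size could have been missed.

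Other genes of the pathway were read from lists, beside 2.67% of all rows tested that were called higher. Of 16 regulators tested, 1 rose and 0 fell. It was Irf1, an interferon-induced transcription factor, which had 9.87, 8.59 and 8.87 CPM in Sham 1, 2 and 3 and 60.9, 175 and 22.1 CPM in CKD 1, 2 and 3. The groups did not overlap, and CKD spread 7.95-fold with the same order as Tap1: CKD 2, CKD 1, CKD 3 (a log2 difference of 3.24 ± 0.69; edgeR adjusted p = 0.0490). Of the RFX and NF-Y subunits none passed, and the log2 fold changes of Rfx5, Rfxank, Rfxap, Nfya, Nfyb and Nfyc ran from -0.29 to 1.05. Ifng, interferon gamma itself, was counted 1, 0 and 0 times in the Sham libraries and 3, 0 and 0 times in the CKD libraries, so no difference was detectable at this depth. Among 4 tested checkpoint and costimulation partners, 1 rose: Cd276, an immune checkpoint molecule of the B7 family, had 8.8, 12.5 and 6.9 CPM in Sham against 64.2, 51.7 and 26.4 in CKD (a log2 difference of 2.33 ± 0.39; edgeR adjusted p = 0.0361). The test was passed by 0 of 7 other class I loading genes (1 at an unadjusted p under 0.05), 0 of 8 class II processing genes (3) and 0 of 6 class I-like genes (1) in edgeR. Without CKD 1 or CKD 2 edgeR called 0 of all rows, Irf1, Cd276 and the called cell markers included (2330 and 2312 rows at an unadjusted p under 0.05). Tapbpl, Psme3 and Icosl were not analysed here.

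Among the CKD libraries the order was much the same from member to member. CKD 2 was the highest CKD library in 26 of the 36 members (72.2%; 28.3% of all rows tested) and CKD 3 the lowest in 32 (88.9%; 40.2%). Members share libraries, so these counts describe the 3 libraries and not the disease.

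Some markers of immune cells rose in CKD as well, where 2.67% of all rows tested were called higher. Of 3 leukocyte markers 2 rose (Ptprc and Coro1a), and the list summed to 52.6 to 70.0 CPM in Sham and 109.6 to 248 in CKD. Of 8 macrophage markers 3 rose (C1qa, Itgam and Mrc1), with sums of 71.0 to 173 and 263 to 558 CPM. Of 7 dendritic cell markers 1 rose, with sums of 21.9 to 35.9 and 48.0 to 101 CPM. At an unadjusted p under 0.05 in edgeR the count was 6 of the 7, all higher in CKD. In 5 of the 7 all CKD libraries lay above all Sham libraries. The called marker was Xcr1, a receptor of cross-presenting dendritic cells. Xcr1 passed the filter through its CKD libraries alone (1, 3 and 2 counts in Sham, 83, 63 and 20 in CKD). So did Batf3 (5, 3 and 0 counts in Sham, 46, 43 and 15 in CKD). Clec9a, another marker of cross-presenting cells, was the only dendritic cell marker with a log2 fold change below 0. It had 0.80, 13.4 and 9.15 CPM in Sham against 7.62, 6.01 and 3.84 in CKD. Its groups overlapped (a log2 difference of -0.42 ± 0.81, edgeR adjusted p = 0.795). Of 6 T cell markers 2 rose (Cd3g and Lck), with sums of 6.99 to 7.80 and 20.6 to 41.8 CPM. At an unadjusted p under 0.05 in edgeR the counts were 3 of 3 leukocyte, 7 of 8 macrophage and 5 of 6 T cell markers. All of these were higher in CKD, as were 13.5% of all rows tested at that p. By contrast 0 of 3 tested B cell markers passed (1 at an unadjusted p under 0.05 in edgeR). The sums of that list were 1.07 to 3.49 and 4.34 to 5.58 CPM. Pax5 was not tested. It was absent from Sham 1 and Sham 3, but Sham 2, at 0.699 CPM, exceeded every CKD library (CKD 1 was next, at 0.482). The 1 tested NK cell marker, Nkg7, did not pass. Ncr1 was not tested. It was absent from Sham 1, but Sham 2, at 0.559 CPM, again exceeded every CKD library (CKD 1 was next, at 0.386). None of 4 endothelial, 4 proximal tubule, 2 thick ascending limb and 2 podocyte markers passed (2, 0, 0 and 0 at an unadjusted p under 0.05 in edgeR). The 2 were Pecam1 and Emcn, with all CKD libraries below all Sham libraries and log2 differences of -0.64 ± 0.22 and -0.69 ± 0.24 (edgeR adjusted p = 0.127 and 0.142). The part of cell numbers in the results above was not tested.

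Set against Ptprc, which encodes the pan-leukocyte marker CD45, the members gave unlike ratios. Ptprc had 12.2, 13.1 and 17.1 CPM in Sham 1, 2 and 3 and 69.9, 47 and 30 CPM in CKD 1, 2 and 3, so that CKD 1 and not CKD 2 was the highest. Ciita per 100 Ptprc counts was 17.49, 19.3 and 22.6 in Sham 1, 2 and 3 and 47.1, 105 and 54 in CKD 1, 2 and 3, without overlap between the groups (exact permutation test, two-sided p = 0.1, the smallest possible; adjusted 0.257). Cd74 per Ptprc count was 29.0 ± 13.3 in Sham and 24.8 ± 6.25 in CKD, and RT1-Da per Ptprc count 7.31 ± 2.70 and 7.63 ± 2.77 (mean ± SD, n = 3 per group; exact permutation test, two-sided p = 0.8 and 0.9; adjusted 0.953 for both). Both overlapped between groups. B2m per Ptprc count was 43.1 ± 20.1 in Sham and 21.6 ± 4.16 in CKD, and here too the groups overlapped (exact permutation test, two-sided p = 0.2; adjusted 0.327). The counts of Cd74 per B2m count were 0.521, 0.555 and 1.0 in Sham 1, 2 and 3 and 1.04, 1.19 and 1.18 in CKD 1, 2 and 3, higher in every CKD library than in any Sham library (exact permutation test, two-sided p = 0.1; adjusted 0.257).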

How the data were processed

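The deposited values are unnormalized whole-number counts for each gene and library, with other columns such as gene length in bases, used here for CPM per kb. Tools named in the submitters' processing notes, with no role or order, are HTSeq 0.11.2, HISAT2 2.1.0 and fastp 0.20.1, and the build named is Rnor_6.0. The strand setting and the treatment of multiply matching reads are not described there.

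Rows were filtered with filterByExpr (minimum count 10, minimum total 15), scaled by TMM and tested with edgeR 4.0.16 (robust quasi-likelihood, limma 3.58.1, R 4.3.3) with group as the only term, and p was adjusted by Benjamini-Hochberg over 15371 rows. Lists are described by counts and medians, without a set test. The model was tested on simulated data for this comparison: over 15371 genes it recovered 48.0% of the genes changed 4-fold and 1.04% of those changed 2-fold. Replicate libraries differed beyond sampling noise.

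The members, the lists and the rule for naming genes were chosen with earlier results of these data known. In full, with all 6 libraries, stand every member that is not an RT1 row, every tested class II row, and the class I rows that passed or were among the 6 highest by mean CPM. Other pathway genes are named where they passed; others named beside them were chosen after their values were seen. Alternatives were other scaling factors and filters, a fit without robust estimation, DESeq2 1.42.0, limma-voom, a replicate block, mitochondrial genes removed, each library left out, and summed copies.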

Additional observations from a re-analysis of the deposited data

How the results depend on the processing

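The count of members called was 4 to 7 (5 as reported) with RLE or upper-quartile factors, other filters, no robust estimation or mitochondrial genes removed. In the same fits the count of all rows called ran from 515 of 15383 (mitochondrial genes removed) to 722 of 21904 (no filter). With library totals alone, which moved the median log2 fold change of all rows by 0.42, 24 members and 2228 of all rows were called (587 as reported; 2047 higher, 181 lower). DESeq2 called 17 members and 2497 rows, and limma-voom 0 members and 164 rows (26 members at an unadjusted p under 0.05). With 1 library left out, edgeR called 0 to 11 members and 0 to 1711 rows. The cause of these differences was not tested.

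The counts gave no sign that the replicate numbers pair the samples: same-numbered Sham and CKD libraries had deviations correlated at -0.21, 0.00 and -0.16. With 3 libraries a group this cannot exclude a pairing, and the labels name none. A fit with the numbers as a replicate block called 0 members (22 at an unadjusted p under 0.05) and 10 rows in edgeR. No Sham library correlated best with the CKD library of its own number, and the medians of the class I and class II lists were 1.32 and 1.69 in that fit.

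The medians of both lists stayed above 0, and their difference kept its sign, in every alternative fit over single rows and with each library left out: class I ran from 1.09 to 1.73, class II from 1.30 to 2.11 and the difference from 0.06 to 0.68. Over the RT1 chains alone the difference of 0.45 turned to -0.015 with copies summed, and ran from -0.097 (without CKD 2; -0.025 without Sham 1) to 0.53 (without CKD 1) with 1 library left out. With class I rows lacking an RT1 symbol also summed it was 0.14. Without Sham 1, Sham 3, CKD 2 or CKD 3 the filter left 10 class II chain rows, against 9 with all libraries. It left 9 without Sham 2 or CKD 1. Of the single members, 3 changed sign. RT1-CE15, at -0.20, was at 0.21 with library totals alone, 0.16 in limma-voom and 0.080 with the replicate block, and ran from -0.71 (without Sham 1) to 0.38 (without Sham 3) with 1 library left out. RT1-DOb ran from -0.26 (without Sham 1) to 1.07 (without Sham 3), and RT1-M6-2 from -0.26 (without Sham 1) to 0.53 (without Sham 2). Counts under about 30 per library limit RT1-M2, RT1-Hb-ps1, RT1-Db2, RT1-Ha and the untested heavy chains, and 3 libraries a group limit every p.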
